A study of Mus musculus with 2 samples.

Results

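Gamma-delta T cells were taken from CD45+ cells of visceral adipose tissue (VAT) as cells with at least 3 unique molecular identifiers (UMIs, distinct mRNA molecules) of Trdc, the constant gene of the T cell receptor delta chain. A member also had at least 1 UMI of Cd3d, Cd3e and Cd3g together, fewer than 10 UMIs of the CD4 antibody, no UMI of Ncr1 or Foxp3 and fewer than 5 UMIs of C1qa, C1qb and C1qc together. These limits left 495 of 25198 cells, 229 of 12474 in the normal water (NW) library and 266 of 12724 in the antibiotics (ABX) library.

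The cells came from wild-type C57BL/6 mice, 15 weeks of age, that were kept on normal water or given antibiotics. CD45+ cells were separated with magnetic beads after enzymatic digestion of the tissue, stained with oligonucleotide-tagged (AbSeq) antibodies and captured with barcoded beads in microwells (BD Rhapsody). Each condition had 1 library, the number of mice behind it is not given in the sources used here, and no test between the conditions was possible. All intervals are 95% intervals of counting error, and the spread between mice is unknown. In values summed over cells, fewer cells of a state and less RNA of a gene per cell cannot be told apart.

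Gamma-delta T cells carry a receptor made of a gamma and a delta chain in place of the alpha and beta chains of conventional T cells, and many settle in tissues early in life. Those programmed to make interleukin 17 (type 17) are guided by Sox13, Maf and Blk and respond to IL-23 and IL-1, while those programmed for interferon gamma (type 1) express Cd27, Tbx21 and NK receptors. In adipose tissue, resident gamma-delta T cells are known as a source of IL-17A that acts on stromal cells and on regulatory T cells.

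The mRNA of the receptor genes was counted by segment. Among variable (V) segments, Trdv4, a delta segment (chromosome 14 of GRCm38, 54074905 to 54075515, plus strand), was the most abundant in NW, with 329 UMIs, and had 144 in ABX. Of the gamma segments, Trgv2 had 169 and 161 UMIs, above Trdv4 in ABX, Tcrg-V6 had 47 and 36, and Tcrg-V1 had 31 and 36. The other gamma and delta segments of the list reached at most 10 UMIs in a library. Tcrg-V6 and Trdv4 are the segments of a canonical receptor that is rearranged in the fetal thymus and found in type 17 cells of several tissues, while Tcrg-V1 is used by many gamma-delta T cells that circulate.

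The last 150 coding bases of 3 of these segments are shown because these segments tell the cells of this report apart further on, with the codon of the conserved cysteine, next to the joining region, in capitals. They are written 5′ to 3′ on the plus strand from GENCODE M21 on GRCm38, at chr14:54075366-54075515 for Trdv4, chr13:19190780-19190929 for Tcrg-V6 and chr13:19340305-19340454 for Tcrg-V1.
Trdv4: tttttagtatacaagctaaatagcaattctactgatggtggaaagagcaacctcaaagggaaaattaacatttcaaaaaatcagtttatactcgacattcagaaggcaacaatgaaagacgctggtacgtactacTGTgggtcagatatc
Tcrg-V6: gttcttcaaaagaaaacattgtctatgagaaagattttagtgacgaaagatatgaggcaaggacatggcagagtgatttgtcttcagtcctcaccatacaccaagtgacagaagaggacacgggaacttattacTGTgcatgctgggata
Tcrg-V1: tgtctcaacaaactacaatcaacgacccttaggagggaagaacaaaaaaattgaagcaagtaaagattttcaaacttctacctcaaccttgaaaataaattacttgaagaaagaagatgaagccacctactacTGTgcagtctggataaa
From the first base of the cysteine codon to the germline end, 15 bases remain in Trdv4, 16 in Tcrg-V6 and 17 in Tcrg-V1.

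Of the members, 59.4% (52.7% to 65.8%) held Trdv4 in NW and 33.8% (28.2% to 39.9%) in ABX. Macrophages, taken as cells with at least 20 C1q UMIs and no CD3 mRNA, give the background of free RNA, where 0.137% and 0.0521% of the cells held Trdv4 at median depths of 6188 UMIs in NW and 4991 in ABX. Tcrg-V6 was found in 16.2% and 10.5% of members, and in 0.0586% and 0.0521% of macrophages. NK cells, which had no CD3 mRNA, held Trdv4 in 7.19% (NW) and 4.85% (ABX) of cells and had no Tcrg-V6 UMI. A Trdv4 UMI alone thus does not show that a cell carries the receptor. V segments lie at the 5′ end of the mRNA and were seen much less often than the constant genes, so a cell without a V segment UMI is not shown to lack that segment.

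Tcrg-C1, a gamma constant gene (chromosome 13, 19214103 to 19217024, plus strand), had 2276 UMIs in NW and 1885 in ABX and was found in 94.8% and 90.6% of members. Tcrg-C2 had 728 and 608 UMIs and was found in 63.3% and 60.2%, and Tcrg-C4 had 366 and 326 UMIs and was found in 60.7% and 52.6%. The transcripts of Tcrg-C1 and Tcrg-C2 are identical at 96.1% of 906 aligned bases, so that counts may be split between them, while Tcrg-C1 and Tcrg-C4 are identical at 73.1%. Alpha chain mRNA was low but present, with Trac in 21.8% (NW) and 16.9% (ABX) of members, against 85.1% and 84.9% of CD4 T cells (556 and 549 cells) and 3.46% and 3.02% of macrophages.

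The Trdc limit cuts through a continuous distribution. Members held a median of 11 Trdc UMIs in NW, with a range of 3 to 50, and a median of 6 in ABX, with a range of 3 to 33. These values chose the members and are a description. Just inside the limit, 15 NW and 40 ABX cells held 3 Trdc UMIs, and 86.7% and 82.5% of them had a Tcrg-C1 UMI. Just outside it, 17 NW and 28 ABX cells held 2 Trdc UMIs, of which 70.6% and 71.4% had Tcrg-C1. At 1 Trdc UMI the share was 43.8% of 16 NW and 43.6% of 55 ABX cells. Cells below the limit thus included many with gamma chain mRNA, and the ABX library held more of them. Of the 299 NW and 344 ABX cells with 3 or more Trdc UMIs, C1q UMIs concerned 39 and 27 and an Ncr1 UMI 24 and 35, the most frequent reasons for leaving a cell out.

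**Figure D1:**
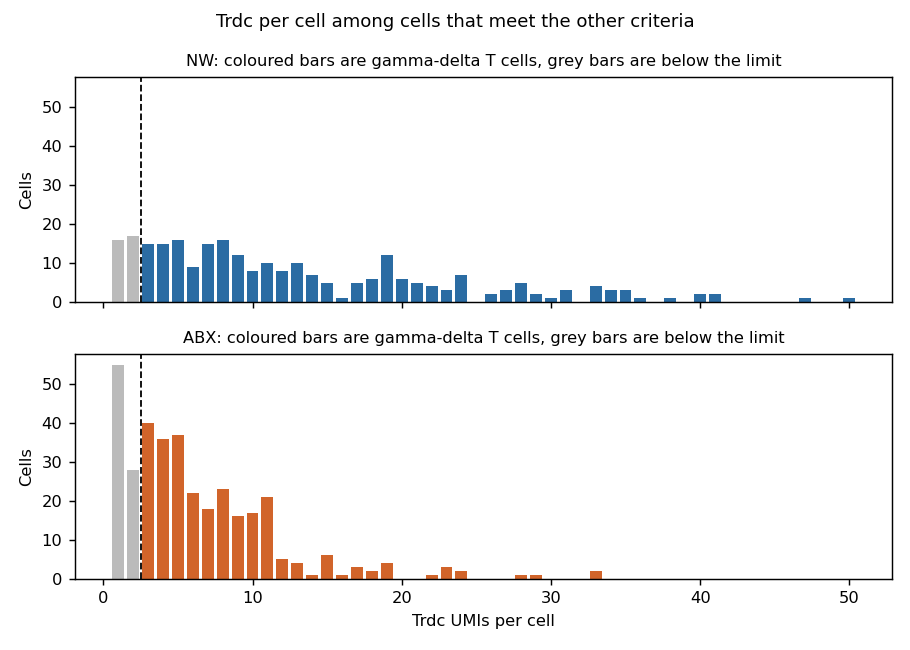
Number of cells (vertical axis) by Trdc UMIs per cell (horizontal axis) in NW (upper plot) and ABX (lower plot), among cells that met the other criteria. Coloured bars are the 229 and 266 members and grey bars the cells below the limit of 3 (dashed line), and the ABX members lie closer to the limit, with a median of 6 against 11.

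Gamma-delta T cells made up 1.84% of NW cells (1.61% to 2.09%) and 2.09% of ABX cells (1.85% to 2.35%). On the log10 scale the ABX share over the NW share came to 0.0564, with an interval of -0.0196 to 0.132 that includes 0. Among cells with CD3 mRNA the shares were 8.52% of 2688 and 9.42% of 2823, a log10 ratio of 0.0438 (-0.0295 to 0.117). The direction rested on the Trdc limit and on depth. With at least 5 Trdc UMIs the value over all cells was -0.0287 (-0.114 to 0.0570), and with at least 1 it was 0.116 (0.0472 to 0.185). With the Trdc counts thinned to 1000 UMIs per cell and the other criteria kept at full depth, the expected shares were 1.13% and 0.919%. The value was then -0.0910 (-0.198 to 0.0162). No direction of the share is therefore read from these libraries.

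Members had a median of 3471 UMIs and 1714 genes in NW and of 3068 UMIs and 1558 genes in ABX, against 5092 and 3845.5 UMIs over all filtered cells. Their median share of mitochondrial UMIs was 5.66% and 5.65%. The libraries shared 196 barcodes among filtered cells. Of the members, 5 in NW and 4 in ABX carried a barcode found in both files, and without shared barcodes the log10 ratio of shares was 0.0602.

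Cd163l1 and Sox13 were higher in the members than in other cells with CD3 mRNA in both libraries. Levels in this and the following comparisons are CPM, counts scaled to the same total for each set of cells. Since the members were chosen from the same counts, the comparison is a description. Cd163l1, which encodes the scavenger receptor SCART1 (chromosome 7, 140218267 to 140231145, plus strand), stood at 1804 CPM in NW and 1485 in ABX and was found in 83.0% and 77.4% of members. In CD4 T cells it stood at 3.27 and 6.46 CPM, and macrophages held it in 0.860% and 0.807% of cells. Against all other cells with CD3 mRNA (2459 and 2557 cells), Cd163l1 was 67.4-fold higher in NW and 49.4-fold higher in ABX. These other cells had no limit on C1q or B cell mRNA and included cells with Trdc that other criteria left out. They held up to 70988 UMIs per cell in NW and 31046 in ABX, and deep cells weigh more in the sums. Of them, 556 and 96 in NW and 549 and 147 in ABX met the rules for CD4 T and CD8 T cells. Sox13, a transcription factor of type 17 gamma-delta T cells, was 47.0-fold and 36.1-fold higher in the same comparison.

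Further genes among the 20 with the highest fold in the lower of both libraries were in neither panel described further on. Kcnk1, a potassium channel, was 29.2-fold higher in NW and 21.4-fold higher in ABX and was found in 49.8% and 48.5% of members. Rbpms2, an RNA-binding protein, was 23.2-fold and 17.4-fold higher, and Ppp1r14c, an inhibitor of a protein phosphatase, was 36.1-fold and 15.7-fold higher. Tns4, Pram1, Flrt2, Mmp25 and Dkk3 were between 9.82-fold and 21.2-fold higher in both libraries. Aqp3, a water and glycerol channel, was 18.6-fold and 10.3-fold higher. The type 17 receptor genes Il23r, Il17re and Il1r1 were also among the 20, with Il23r 36.6-fold and 13.7-fold higher.

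Some genes that other T cells express were found in few members. Lck, the kinase that starts signalling at the alpha-beta receptor, was found in 16.2% (NW) and 19.5% (ABX) of members, against 72.8% and 70.5% of CD4 T cells, 84.4% and 81.0% of CD8 T cells and 73.5% and 68.1% of NK cells. Cd2, an adhesion receptor of T and NK cells, was found in 19.2% and 22.2% of members and in 69.6% and 65.4% of CD4 T cells. Zap70, the kinase that acts after Lck, was found in more members than CD4 T cells in NW, 66.4% against 32.6%. In ABX the shares were close, 38.7% against 34.8%. Ffar2, a receptor for short-chain fatty acids that gut bacteria produce, was found in 27.9% (NW) and 23.7% (ABX) of members. It was found in 1.08% and 0.729% of CD4 T cells, in 3.12% and 6.12% of CD8 T cells, in 0.654% and 1.28% of NK cells and in 0.469% of macrophages of either library. The median depths of CD4 T cells, 3311.5 UMIs in NW and 3395 in ABX, and of NK cells, 3340 and 3270.5, were near those of the members.

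**Figure D2:**
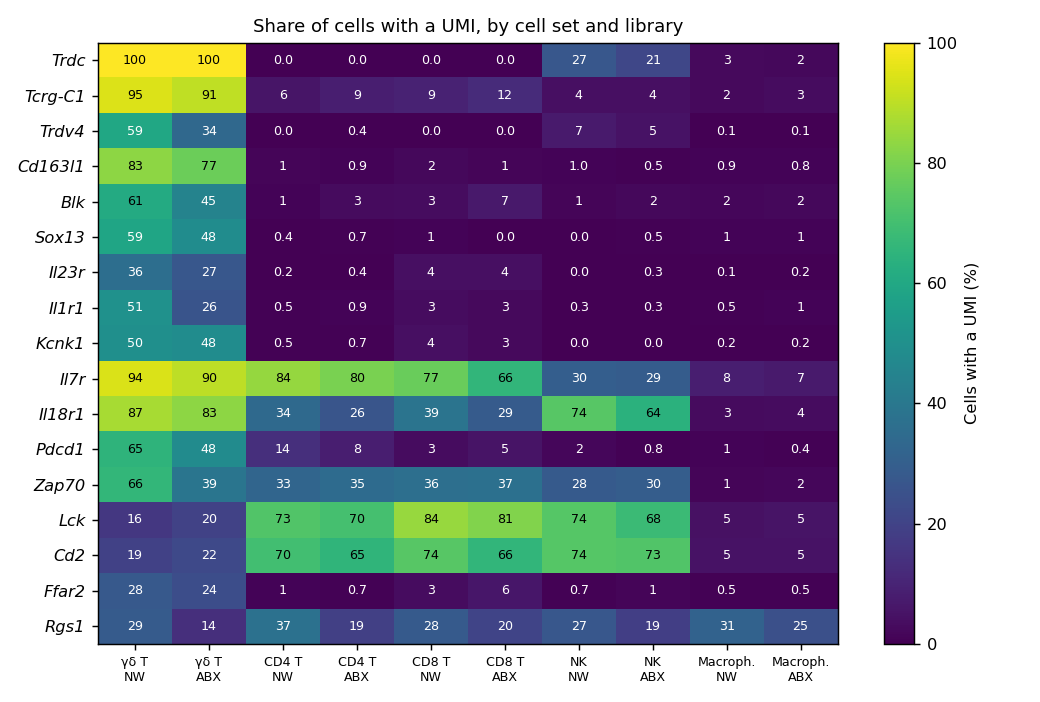
Share of cells with a UMI (colour and printed percent) of selected genes (rows) in gamma-delta T cells, CD4 T, CD8 T, NK cells and macrophages of each library (columns). Cd163l1, Blk, Sox13, Il23r, Il1r1, Kcnk1 and Ffar2 are frequent in gamma-delta T cells and rare in CD4 T, CD8 T and NK cells. Il18r1 is also frequent in NK cells, at 73.9% (NW) and 64.0% (ABX), and is found in 38.5% and 28.6% of CD8 T cells. Lck and Cd2 are more frequent in CD4 T, CD8 T and NK cells, with Lck in 16.2% and 19.5% of gamma-delta T cells and 72.8% and 70.5% of CD4 T cells.

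The members fell into a large type 17 set and a small type 1 set. Of 9 type 17 panel genes, which included Cd163l1, Blk, Il17a, Il23r, Sox13, Il1r1, 5830411N06Rik and Ccr6, at least 2 were found in 195 of 229 NW and 203 of 266 ABX members. Of 6 type 1 panel genes (Cd27, Ly6c2, Tbx21, Eomes, Xcl1 and Ccl5), at least 2 were found in 26 and 44. Only 2 NW and 3 ABX members had at least 2 of each.

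Type 17 panel cells, with at least 2 genes of the first panel and none of the second, numbered 141 in NW, 61.6% (54.9% to 67.9%), and 171 in ABX, 64.3% (58.2% to 70.0%). Type 1 panel cells, defined the opposite way, numbered 23 in NW, 10.04% (6.47% to 14.7%), and 40 in ABX, 15.0% (11.0% to 19.9%). Their ratio on the log10 scale was 0.175 (-0.0338 to 0.384). Cells with genes of both panels made up 24.5% of NW and 13.5% of ABX members. Of these 56 and 36 cells, 32 and 15 had a UMI of Tbx21 and 19 and 16 a UMI of Ccl5. With at most 1 gene of the other panel allowed, type 17 cells were 193 in NW and 200 in ABX, or 84.3% and 75.2%, with a log10 ratio of -0.0496 (-0.0882 to -0.0110), whereas the stricter definition gave 0.0187 (-0.0403 to 0.0778). The share of the type 17 set thus changed direction with the definition.

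**Figure D3:**
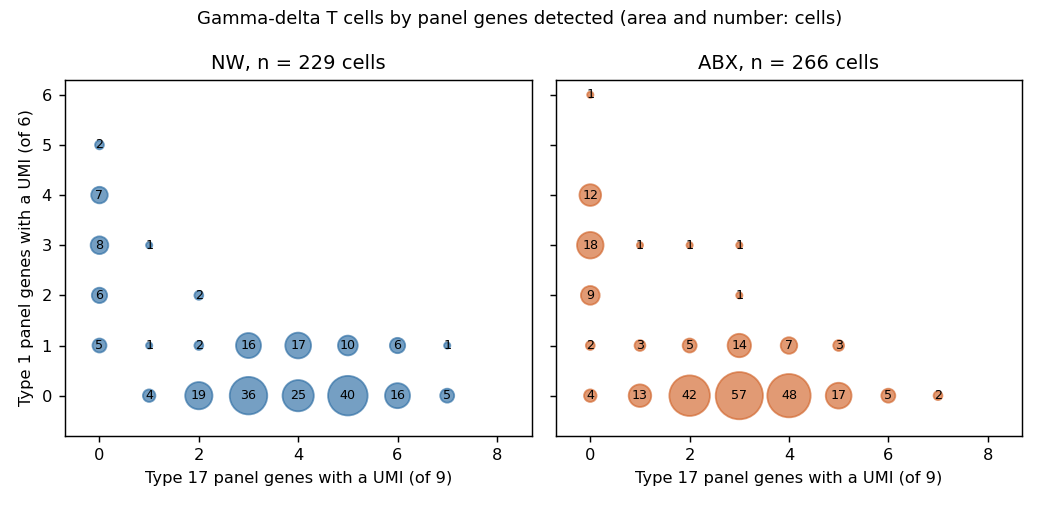
Members of NW (left) and ABX (right) by the number of type 17 panel genes (horizontal axis, of 9) and type 1 panel genes (vertical axis, of 6) with a UMI. Bubble area and the printed number give the cells, and most lie along either axis, with 2 NW and 3 ABX members holding at least 2 genes of each panel.

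Genes outside the panels also divided along these lines. Trdv4, printed above, was found in 68.8% (NW) and 42.7% (ABX) of type 17 cells and in 0 of 23 and 0 of 40 type 1 cells, which allows shares of up to 13.04% and 7.5%, taken as 3 counts of the cells. Tcrg-V6 was found in 18.4% and 13.5% of type 17 cells and in no type 1 cell. Tcrg-V1 was found in 7.80% and 6.43% of type 17 cells but 30.4% and 27.5% of type 1 cells. The canonical segments were thus seen in type 17 and not in type 1 cells, and Trgv2 was found in both sets, in 36.9% and 39.2% of type 17 and 34.8% and 35.0% of type 1 cells.

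Surface receptors and signalling genes differed as much. Il2ra, the alpha chain of the IL-2 receptor, was found in 78.0% (NW) and 81.3% (ABX) of type 17 cells and in 8.696% and 2.5% of type 1 cells. Pdcd1, which encodes the checkpoint receptor PD-1, was found in 69.5% and 60.8% of type 17 cells and in 0% and 2.5% of type 1 cells. Ffar2 and Kcnk1 were found in type 17 cells, Ffar2 in 33.3% and 31.6%, and in no type 1 cell of either library. In the other direction, Lck was found in 7.09% (NW) and 4.68% (ABX) of type 17 cells and in 91.3% and 85.0% of type 1 cells. Cd2 was found in 9.22% and 9.36% against 82.6% and 75%. Nkg7, a granule membrane protein of cytotoxic cells, was found in 1.42% and 2.34% against 87.0% and 85.0%. Low Lck and Cd2 were thus seen in type 17 and not in type 1 cells. Median depth was 3563 UMIs in NW and 3171 in ABX for type 17 cells and 2882 and 2765.5 for type 1 cells. In the ABX type 1 cells, Trac was found in 30.0% and Cd8b1, a coreceptor gene of CD8 T cells, in 12.5%, against 4.35% and 0% in NW, and whether some of these are alpha-beta T cells was not tested.

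**Figure D4:**
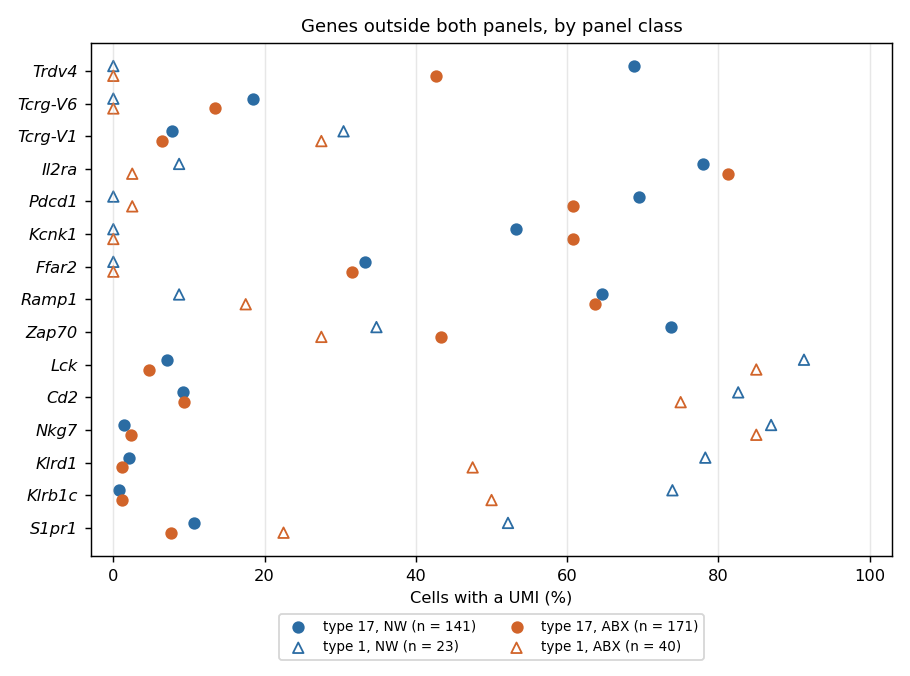
Share of cells with a UMI (horizontal axis, percent) of genes outside both panels, in type 17 cells (filled circles) and type 1 cells (open triangles) of NW (blue) and ABX (orange). Trdv4, Tcrg-V6, Il2ra, Pdcd1, Kcnk1 and Ffar2 lie to the right in type 17 cells and Lck, Cd2 and Nkg7 in type 1 cells, with Lck at 91.3% and 85.0% in type 1 against 7.09% and 4.68% in type 17 cells.

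The CD44 and CD25 antibody counts, which did not define the panels, differed between the sets too. CD44, a receptor high on activated and memory T cells, had a median of 219 antibody UMIs in NW and 211 in ABX type 17 cells, and of 77 and 68.5 in type 1 cells. CD25, the product of Il2ra, had medians of 19 and 18 against 5 and 4. Counts of CD25 and CD44 were thus higher in type 17 than in type 1 cells of both libraries. The files also hold counts of CD3, with medians of 14 and 12 in type 17 and 4 and 5 in type 1 cells, and of NK-1.1, with medians of 13 and 10 against 20 and 14.5. Neither is among the antibodies that the methods of the study list, so whether these counts stand for staining is not known. Macrophages, with no CD3 mRNA, had medians of 10 and 10 for CD3, 10 and 9 for CD25 and 61 and 57 for CD44. For NK-1.1 they had medians of 34 and 37, above the 24 and 20.5 of NK cells. A higher NK-1.1 count therefore does not mark NK-like cells here.

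Over all members, the TCR-beta antibody had a median of 9 UMIs in NW and 7 in ABX, near that of NK cells (8 and 8) and below CD4 T cells (50 and 38) and CD8 T cells (57.5 and 42). It was at least 15 in some members, and 174 NW and 216 ABX members stayed below. The median of CD44 was 218 in NW and 187 in ABX, of CD25 17 and 14, and of CD69 10 and 6. The quartiles of each of these antibodies overlapped between the libraries. For CD69, an early activation and retention receptor, they were 5 to 19 in NW and 3 to 12 in ABX.

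ABX was compared with NW gene by gene over the 5531 genes with at least 50 UMIs in the members of both libraries together, on 850110 UMIs in NW and 843795 in ABX. A gene is called higher or lower in ABX where its CPM differed at least 1.5-fold and the counting interval of the ratio leaves out 1. Of all genes tested, 3.11% were called higher and 2.82% lower, and the median log2 ratio was 0.01. Each list below is read beside these shares, and a list of few genes without a call cannot be told apart from them. These calls compare 1 library with another and are not a test of the antibiotics.

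Of the 30 type 17 identity genes, 27 reached 50 UMIs, 7 were called lower, 0 higher and 20 neither, beside 2.82% lower over all genes. Their median log2 ratio was -0.37, and 21 were below 0 and 6 above. Il1r1, the IL-1 receptor (chromosome 1, 40225080 to 40317257, plus strand), had 251 UMIs (295 CPM) in NW and 99 (117 CPM) in ABX, a log2 ratio of -1.33 (-1.68 to -0.99). Blk (chromosome 14, 63372836 to 63417037, minus strand) had 530 and 249 UMIs, a log2 ratio of -1.08 (-1.30 to -0.86). Il1r1 and Blk were found in fewer ABX members, 25.9% against 50.7% and 44.7% against 61.1%. Zbtb16, the regulator PLZF of innate-like T cells, stood at -0.81 (127 and 72 UMIs), Ly6g5b at -1.13 (256 and 116), Ltb4r1, a leukotriene B4 receptor, at -0.72 (134 and 81) and Actn2 at -0.62 (118 and 76).

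Most type 17 genes were not called. Cd163l1 stood at -0.28 (-0.39 to -0.17), Sox13 at -0.45 (338 and 245 UMIs), Maf at -0.43 (1197 and 882) and Il23r, the IL-23 receptor, at -0.51 (139 and 97). Rora stood at 0.20 and Il18r1, an IL-18 receptor chain, at 0.18, with 887 UMIs in NW and 998 in ABX. Kcnk1 was level, at 0.03 with 215 and 218 UMIs. Type 1 panel cells hold none of the type 17 panel genes by definition. Some held other type 17 genes, with Il18r1 in 39.1% (NW) and 35.0% (ABX) and Maf in 34.8% and 35.0%, below the shares in type 17 cells. Members with fewer than 2 type 1 panel genes, 203 in NW and 222 in ABX, were therefore compared separately. In them 6 type 17 genes were lower, Actn2 no longer among them, with Il1r1 at -1.22 and Blk at -0.99. Depth moved the share of cells with a UMI, and at 1000 UMIs per cell Il1r1 was found in 22.4% (NW) and 10.7% (ABX) of members.

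In the receptor list, 7 of 20 genes reached 50 UMIs, of which Trdc, used by the rule, and Trdv4 were called lower and none higher. Trdv4 stood at a log2 ratio of -1.18 (-1.47 to -0.89), Tcrg-V6 at -0.37 (-1.04 to 0.28), Tcrg-C1 at -0.26 (-0.35 to -0.17) and Trgv2, which is not in the list and was chosen after its values were seen, at -0.06 (-0.38 to 0.26). At 1000 UMIs per cell Trdv4 was found in 27.7% (NW) and 14.1% (ABX) of members. The lower Trdv4 of the ABX library was also seen within type 17 cells, with 452 CPM in NW and 212 in ABX.

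Of 11 signalling genes tested, 1 was lower and 2 were higher. Zap70 had 310 UMIs in NW and 147 in ABX, a log2 ratio of -1.07 (-1.36 to -0.78). In CD4 T cells its log2 ratio was 0.14 (-0.11 to 0.39), in CD8 T cells -0.07 and in NK cells 0.12, so the counting intervals of members and CD4 T cells did not overlap. Lck had 67 and 122 UMIs (0.88) and Cd2 74 and 122 (0.73). In members with fewer than 2 type 1 panel genes, Lck stood at 0.60 and Cd2 at 0.03, both with intervals that include 0, while Zap70 stood at -1.08. Lck had 18 and 25 UMIs in these members, too few to be called, and Cd2 had 33 and 31.

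Il17a (chromosome 1, 20730905 to 20734496, plus strand), the cytokine of the type 17 programme, was found in 12 NW members, 5.24% (2.74% to 8.97%), and in 1 ABX member, 0.376% (0.00952% to 2.08%). The NW cells held 33 UMIs, at most 8 in a cell, and the ABX cell held 2, so that the level in NW was 16.4-fold that in ABX, with an interval of 4.19 to 141. All 12 NW cells had at least 2 type 17 panel genes and 0 had 2 of the type 1 panel. Among macrophages, Il17a was seen in 0 of 5118 cells in NW, which allows a share of up to 0.0586% on the same rule of 3 counts, and in 1 of 3840 in ABX. Over all filtered cells the NW library held 40 Il17a UMIs and the ABX library 4. At 1000 UMIs per cell it was found in 2.46% and 0.179% of members. The interval treats UMIs of a cell as independent, and the share of cells is the safer reading.

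The 12 Il17a cells of NW also held more of some activation genes than the other 217 NW members. Nr4a1, an immediate early gene induced by receptor signalling, stood at 567 CPM (29 UMIs) against 148 CPM (118 UMIs). Tnf stood at 254 CPM (13 UMIs) against 67.6 CPM (54 UMIs) and Cd69 at 332 CPM against 92.6, while Rgs1 was level, at 137 against 150.2 CPM. The cells are few and the genes were chosen after Il17a was seen.

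Other cytokines of the list were sparse. Il17f had 2 UMIs in NW and 0 in ABX, Il22 and Ccl20 had none in either, and Csf2, a growth factor of myeloid cells, had 13 and 8. Tnf was the 1 member of the list that reached 50 UMIs and was lower, with 67 and 36 UMIs and a log2 ratio of -0.89 (-1.51 to -0.28). Areg, a growth factor for epithelial cells and Treg cells, had 14 UMIs in a single NW cell and 0 in ABX.

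Of 24 type 1 and cytotoxic genes, 13 were tested, 1 was higher and 2 were lower. Ccl5, a chemokine of memory and cytotoxic lymphocytes, had 489 UMIs in NW and 861 in ABX, a log2 ratio of 0.83 (0.67 to 0.99), and was found in 18.3% and 19.5% of members. With equal weight for each cell it stood at 0.57 and was not called, and within type 1 cells, a set that its own UMIs help to define, it stood at 6073 CPM in NW and 6228 in ABX. Gzmb, a granule protease, had 55 and 15 UMIs (-1.86), but 1 NW cell held 33 of them, and in members with fewer than 2 type 1 panel genes it had 12 UMIs in each library, a log2 ratio of 0.12. Tbx21, the regulator of the type 1 programme, had 69 and 40 UMIs, a log2 ratio of -0.78 (-1.38 to -0.19). Ly6c2 had 290 and 428 UMIs (0.57), which missed the fold, and Ifng had 12 and 17.

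Among genes of residency and recirculation, Rgs1, a brake on chemokine receptor signalling, had 127 UMIs in NW and 54 in ABX, a log2 ratio of -1.22 (-1.71 to -0.75), and Cd69 had 91 and 53 (-0.77). These were 2 of 10 residency genes tested, and the chemokine receptor Cxcr6 stood at -0.45 (1010 and 736 UMIs). Rgs1 was also lower in CD4 T cells, at -1.21, in CD8 T cells, at -0.84, and in NK cells, at -0.66. The 8 recirculation and quiescence genes tested all had a log2 ratio above 0, with a median of 0.36, and 1 was called higher. This was Bach2, a repressor that keeps T cells quiescent, with 11 and 45 UMIs (2.04, 1.07 to 3.14), but with 6 and 16 in members with fewer than 2 type 1 panel genes, too few to be called. When each cell had equal weight, the median of this list was 0.06.

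Cytokine receptors changed little. Il7r, the receptor for the survival cytokine IL-7, had 2391 UMIs in NW and 2379 in ABX, a log2 ratio of 0.00 (-0.08 to 0.09), and Il2ra stood at -0.10. Of 10 tested, only Il12rb1, a chain shared by the receptors of IL-12 and IL-23, was called, with 53 and 33 UMIs (-0.67, -1.35 to -0.02), and it was not called with equal weight for each cell (-0.60) or in members with fewer than 2 type 1 panel genes (-0.61). Of 5 checkpoint and costimulation genes tested, Tnfrsf18, which encodes GITR, was higher with 77 and 125 UMIs (0.71, 0.29 to 1.14), Cd28 was higher with 22 and 44 (1.01) but had 8 and 8 in members with fewer than 2 type 1 panel genes, and Tnfsf11, which encodes RANKL, was lower with 95 and 58 (-0.70). Pdcd1 stood at -0.42 (571 and 425 UMIs).

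Of 6 genes tested that sense microbial products or metabolites, none was called in either direction. That is too few genes to tell apart from the 3.11% higher and 2.82% lower over all genes. Ffar2 stood at -0.06 (168 and 160 UMIs, -0.38 to 0.26) and Gpr183, a receptor for oxysterols, at -0.30 (331 and 266). Ahr, a receptor for dietary and bacterial ligands, had 29 and 18 UMIs, and Pparg 3 and 4. Of 9 lipid and glycolysis genes 0 were called, with Cd36, a fatty acid transporter, at -0.53 (134 and 92 UMIs) and Ldha at -0.43. Of 17 immediate early and heat shock genes, which tissue digestion can induce, 1 was called, Nr4a1 with 147 and 75 UMIs (-0.96, -1.38 to -0.55). It was also lower in CD4 T cells, at -1.24, in CD8 T cells, at -1.44, and in NK cells, at -1.01. Hspa1a stood at -0.01 and Jun at 0.07. None of the genes tested was called among 3 proliferation genes, 1 interferon-stimulated gene, 3 alpha-beta receptor genes and 3 genes of fat crosstalk.

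**Figure D5:**
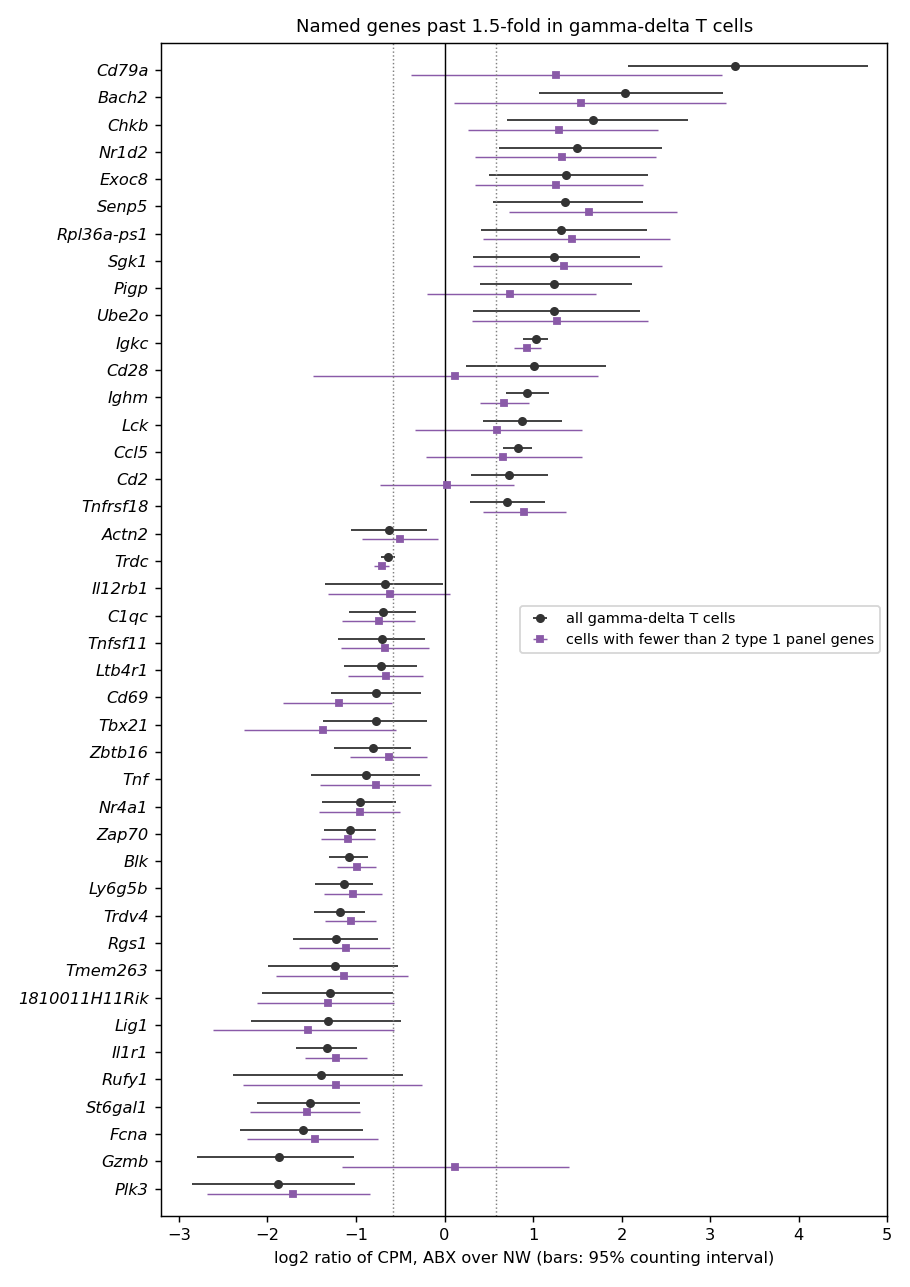
Log2 ratio of CPM, ABX over NW, with its 95% counting interval for named genes called higher or lower in all members (circles), and the same in members with fewer than 2 type 1 panel genes (squares, a filter that acts on the panel genes Ccl5 and Tbx21 themselves); dotted lines mark 1.5-fold. Il1r1, Blk, Zap70 and Trdv4 lie beyond the left 1.5-fold line in both, at -1.33 and -1.22 for Il1r1. Lck, Cd2, Cd28 and Gzmb have squares with intervals that include 0. Of these, Lck (18 and 25 UMIs), Cd28 (8 and 8) and Gzmb (12 and 12) have too few UMIs there to be called.

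The genes with the highest and lowest ratios over the whole table were mostly of low count. Lowest was Plk3, a stress-responsive kinase, with 52 and 14 UMIs (-1.88), followed by Gzmb, Fcna, a lectin of macrophages, with 76 and 25 (-1.59), and St6gal1, a sialyltransferase, with 101 and 35 (-1.52). Fcna was also lower in CD4 T cells, at -1.27, and in NK cells, at -1.36, while in CD8 T cells it stood at -0.58 (-1.33 to 0.18). St6gal1 stood at 0.36 in CD4 T cells. Rufy1, Il1r1, Lig1, 1810011H11Rik, Tmem263 and Rgs1 completed the 10 lowest. Highest was Cd79a, a B cell receptor gene, with 6 and 58 UMIs (3.28), followed by Bach2 and by Chkb, choline kinase beta, with 12 and 38 (1.67). Nr1d2, a repressor of the circadian clock, had 15 and 42 UMIs (interval of 0.62 to 2.45). Exoc8, Senp5, Rpl36a-ps1, Pigp, Sgk1 and Ube2o completed the 10 highest, all with at most 46 UMIs in a library.

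Messages of other cell types moved with the libraries. The 6 B cell markers were summed to 1020 CPM in NW and 2130 in ABX, all 3 tested were higher, and Ms4a1 was at 0 in NW. Igkc had 620 and 1256 UMIs in the members, and it was also higher in ABX in CD4 T cells, by a log2 ratio of 3.63, and in NK cells, by 3.11. The 9 macrophage markers were summed to 1408 CPM in NW and 1142 in ABX, with C1qc, limited by the rule, lower (160 and 98 UMIs, -0.70). The 7 NK markers were summed to 92.9 and 105 CPM, with Ncr1 at 0 by the rule, the 7 ILC2 markers to 170 and 158 UMIs, the 7 dendritic cell markers to 1047 and 1455 CPM, and the 5 endothelial and fibroblast markers to 87.0 and 105 CPM with Cdh5 and Pdgfra at 0. Per member these sums ranged from 0 to 13 UMIs in NW and 0 to 266 in ABX for B cell markers and from 0 to 34 and 0 to 53 for macrophage markers. In members without UMIs of B cell genes such as Cd79a, 203 in NW and 231 in ABX, Blk, a gene that B cells also express, stood at -0.94, Il1r1 at -1.19 and Zap70 at -1.01. In this set 5 type 17 genes were lower. The part of free RNA in the other differences was not tested.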

How the data were processed

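The authors processed the reads with the BD Rhapsody whole transcriptome pipeline (version 1.8 in the file headers) on GRCm38 and deposited UMI counts per cell barcode for each gene and 10 antibodies, without normalization. Their processing notes also name R 3.6.0 and Seurat 3.0.1.

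Cells with at least 500 gene UMIs, at least 200 genes and at most 25% mitochondrial UMIs were kept. Counts were summed over members, given as CPM, and compared as a ratio with an exact interval that conditions on the total UMIs of the gene. With equal weight for each cell, the ratio is of means over cells of counts scaled to the same total. Its interval is that of the summed UMIs, rescaled to the new ratio, and holds no spread between cells. Shares carry Clopper-Pearson intervals and their log10 ratios a counting interval from a normal approximation on the log scale. CD4 T cells had CD3 mRNA, at least 10 CD4 antibody UMIs and no Foxp3 or Trdc UMI. CD8 T cells had CD3 mRNA, Cd8b1, fewer than 10 CD4 antibody UMIs and no Trdc or Ncr1 UMI. NK cells had Ncr1 and no CD3 mRNA. These sets had fewer than 5 C1q UMIs. Thinning used expected values of the hypergeometric distribution. It left out cells under 1000 UMIs, 249 in NW and 376 in ABX, with 0 and 2 members among them. For the share of members, only the Trdc count was thinned.

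The genes named are those of 23 lists with at least 20 UMIs over members, the 10 highest and 10 lowest ratios among genes called, and the 20 with the highest fold over other CD3 mRNA positive cells, in the lower of both libraries, with a UMI in at least 20% of members. Some genes of low count are named to complete a list. The members and lists were chosen with earlier results of these data known. Doublets were kept. Scrublet (scanpy 1.11.5) called 2.76% of NW and 0.605% of ABX cells, and 0 members, by its automatic threshold, so the alternative removed the highest 6% of scores. TMM factors came from edgeR 4.0.16, and the other steps used Python 3.11.15, numpy 2.4.6, pandas 2.3.3 and scipy 1.17.1. The ratios and intervals were tested on simulated data with independent counts, the model that the intervals assume. UMIs that cluster in a cell were not simulated, so that test does not cover them. Some genes of the lists and panels, and an antibody, entered the counts but are not reported here.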

Additional observations from a re-analysis of the deposited data

Results flagged for a closer look

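Of the list genes, 3 differed in opposite directions between gamma-delta T cells and another set of lymphocytes of the same libraries, and these differences were not tested, since there is 1 library per condition. Blk had a log2 ratio of ABX to NW of -1.08 in gamma-delta T cells and of 1.54 (0.58 to 2.62) in CD4 T cells, where it had only 12 UMIs in NW and 38 in ABX. B cells express Blk too, and Igkc was higher in the same ABX CD4 T cells by a log2 ratio of 3.63, whose part in the result was not tested. Ccl5 stood at 0.83 in gamma-delta T cells and at -0.87 (-0.95 to -0.78) in CD8 T cells, on 2547 and 2373 UMIs. With equal weight for each gamma-delta T cell, Ccl5 stood at 0.57 and was not called. Tnfrsf18 stood at 0.71 in gamma-delta T cells and at -0.65 (-0.86 to -0.44) in CD4 T cells, on 453 and 313 UMIs.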

How the results depend on the processing

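No paired analysis was possible because each condition had 1 library. The log10 ratio of the share of gamma-delta T cells moved from 0.0564 to -0.0287 with at least 5 Trdc UMIs. It moved to -0.0910 with Trdc counts thinned to 1000 UMIs per cell. The ratio among cells with CD3 mRNA moved from 0.0438 to -0.0414 with at least 5 Trdc UMIs. The type 17 share moved from 0.0187 to -0.0496 where 1 gene of the other panel was allowed, an alternative added after the data were seen. With a minimum of 20 UMIs, 288 genes were higher and 244 lower in ABX, and with 200 UMIs 20 and 32, against 172 and 156, because other numbers of genes were tested. The number of type 17 genes called lower was between 5 and 8 in the 5 alternatives. For the 43 named genes, 322 of 343 values kept direction and moved within their counting interval, 20 moved further and 1 changed direction, Gzmb at 0.12 in members with fewer than 2 type 1 panel genes. Cd79a had no value in members without B cell gene UMIs and stood at 1.19 (-0.30 to 2.88) without the highest doublet scores. Igkc stood at 2.23 and Ighm at 2.10 with at least 2 Trdc UMIs. The 1.5-fold limit, UMIs of low-count genes and the unknown spread between mice limit every comparison of the libraries.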
